A study of Rattus norvegicus with 36 samples.

Results

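Whole-lung RNA was compared between 12 libraries of hypoxic rats given the anti-ZIP12 antibody APL-9796 and 12 of hypoxic rats given control IgG, out of 36 libraries in the series. Libraries were assigned by the arm and sex in the deposited information sheet, which matched the sample labels in 36 of 36 libraries. All animals, normoxic controls included, were huSlc39a12 rats, a Sprague Dawley line in which CRISPR-Cas9 editing exchanged the rat Slc39a12 gene for the human one. Both compared arms held 6 males and 6 females, adult and weighing 200 to 240 g. They breathed 10% oxygen at normal pressure for 2 weeks. Either antibody was injected intraperitoneally at 10 mg/kg, first 48 h before hypoxia and again every 3 days. The 12 normoxic libraries, also 6 per sex, carry no antibody in their labels. No label says whether every library is its own animal, so p-values measure the spread between libraries. In whole lung, fewer cells of a type and less RNA per cell cannot be told apart.

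ZIP12, encoded by Slc39a12, is a plasma-membrane transporter that carries zinc into the cytosol. Zinc importers of the SLC39 (ZIP) family raise cytosolic zinc, and exporters of the SLC30 (ZnT) family lower it. Free zinc activates the transcription factor MTF1, which binds metal response elements and switches on metallothioneins and the exporter gene Slc30a1. In the lung, chronic hypoxia remodels small pulmonary arteries, with thicker smooth muscle, more matrix and a raised pulmonary pressure. ZIP12 was linked to that remodelling in rats, which is the question the series title names.

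The target could not be followed. The rat Slc39a12 entry had 0 counts in every library, which over the pooled 24 hypoxic libraries allows up to 0.0113 CPM (counts relative to the library total). Whether reads from the human gene would be counted under that entry is not stated in the sources used. The tissue carried lung markers throughout: Sftpc, the surfactant protein of alveolar type II cells, stood at 8850 ± 911 CPM (SD, n = 12) with IgG and 8205 ± 1187 (n = 12) with APL-9796.

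Totals of the 24 libraries ran from 6.07 to 18.1 M counts, with a median of 10.2 M for IgG and 11.5 M for APL-9796. Sequencing run, read from pool and flow cell in the deposited sheet, was uneven: run A held 7 IgG and 10 APL-9796 libraries and run B held 5 and 2. Among females, 4 of 6 IgG libraries but 1 of 6 APL-9796 libraries were in run B. Several libraries stood apart. APL-9796 library 4 (male, run B) had a score of -43.98 on the second principal component, against -12.8 for the next lowest library, and the lowest quality weight, 0.151. IgG libraries 6 and 11 carried fat and heart muscle transcripts. APL-9796 library 5 carried skeletal and heart muscle transcripts, and 1674 CPM of Krt4, a squamous epithelial keratin. APL-9796 library 6 had the highest summed level of immediate early genes. Values without some of these libraries stand beside results that move with them.

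Across the lung transcriptome, no gene separated APL-9796 from IgG beyond the correction for multiple tests. Of 15359 genes tested with sex as a blocking term, 0 (0.0%) passed a false discovery rate (FDR, the Benjamini-Hochberg adjusted p of edgeR's quasi-likelihood test) of 0.05. The smallest FDR was 0.704. At an unadjusted p under 0.05, 527 genes were higher (3.43%) and 507 lower (3.30%) with APL-9796, together 6.73% of genes where 5% would be crossed by chance. A test against a 1.2-fold change called 0 genes, but it is stricter than the first on the same fit and adds no support. DESeq2 called 0 and limma-voom with quality weights called 1. In 0 genes did all 12 APL-9796 libraries lie above, or all below, all 12 IgG libraries. APL-9796 library 4 weighed on the unadjusted counts, which without it were 1179 higher and 1242 lower, with 0 past FDR 0.05 and a smallest FDR of 0.172.

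The data set limits on how large a difference could be. The median log2 difference over all genes was 0.0038, and 90% of estimates fell between -0.21 and 0.23. For each gene a 95% interval was taken from the fit, without correction for the number of genes. Its median half-width was 0.18 on the log2 scale, or 1.14-fold. The interval lay wholly within a 1.2-fold change either way for 7647 genes (49.8%), within 1.5-fold for 13488 (87.8%) and within 2-fold for 14963 (97.4%). Precision followed abundance. In the quartile of genes with the lowest mean level, below 6.94 CPM, 58.8% had an interval within 1.5-fold. In the highest quartile, above 66.1 CPM, 98.8% did, and the median half-width was 0.12. The interval reached beyond 2-fold for 396 genes, 277 of them with a mean under 5 CPM. Among these 396 were 18 of the 20 tested markers of adipocytes, heart muscle and skeletal muscle.

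**Figure D1:**
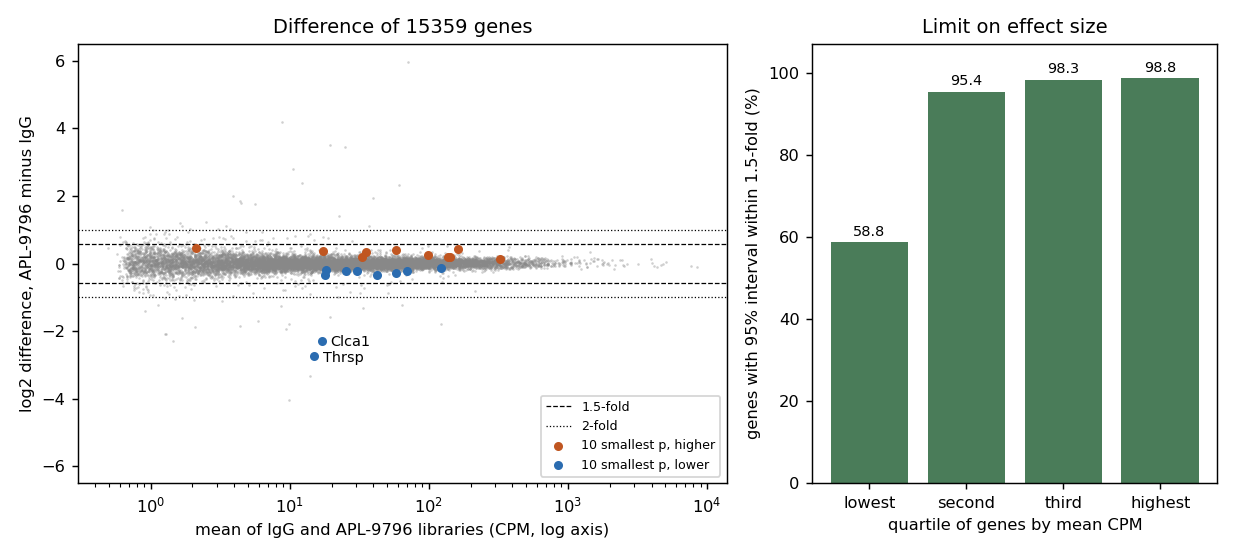
Left, log2 difference of APL-9796 minus IgG (both sexes, 12 libraries per arm) against mean level in CPM on a log axis, 1 point per gene, with the 10 genes of smallest p in each direction coloured and lines at 1.5-fold and 2-fold. Right, percentage of genes in each quartile of abundance whose 95% interval lies within 1.5-fold, which goes from 58.8% in the lowest to 98.8% in the highest quartile.

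The arms were also not separated on the leading axes of variation. On the first 3 principal components of the 1000 most variable genes, which held 21.9%, 15.6% and 10.2% of the variance, the mean scores of APL-9796 and IgG differed by -3.42, -1.53 and -5.34. Two-sided permutation tests gave p = 0.532, 0.842 and 0.133, or 0.797, 0.842 and 0.400 after adjustment over the 3 components. The spread within an arm was larger than these differences, with an SD of 14.1 over IgG and 11.9 over APL-9796 libraries on the first component.

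**Figure D2:**
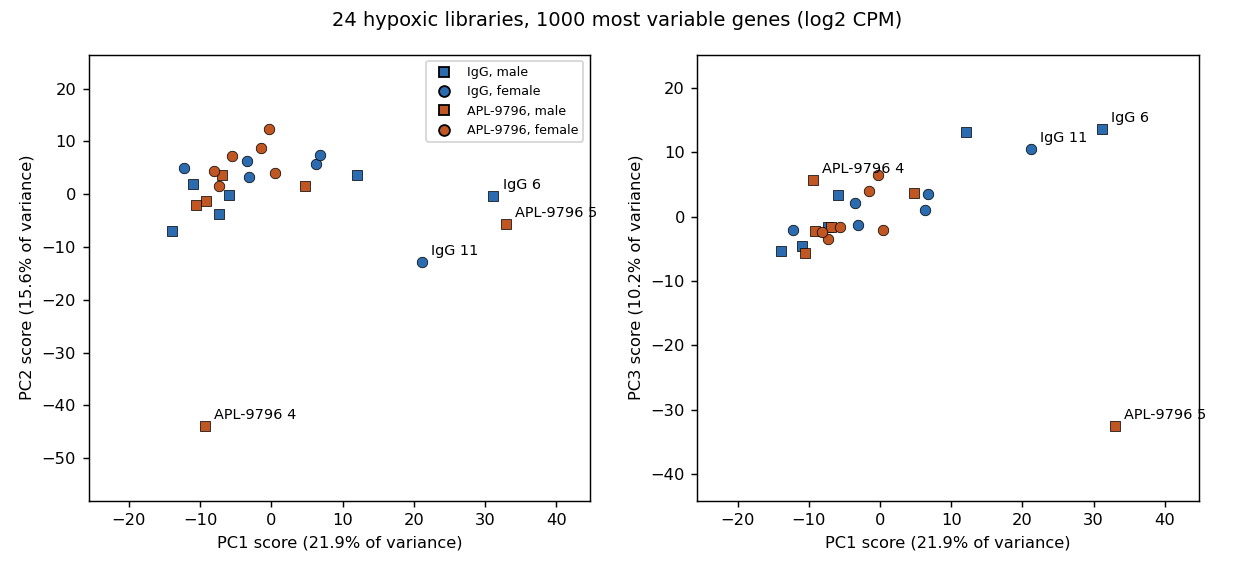
Scores of the 24 hypoxic libraries on principal components 1 and 2 (left) and 1 and 3 (right), with arm by colour and sex by symbol. The 2 arms are intermixed, and APL-9796 libraries 4 and 5 and IgG libraries 6 and 11 lie away from the rest.

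Although none passed the FDR threshold, the genes with the smallest p-values show the size of difference seen here. Among the 10 in the higher direction were the 5-methylcytosine dioxygenase Tet2, the microRNA silencing factor Tnrc6a, the kinases Hipk2 and Wnk1 and the transcription factor Zfhx3. They also held Ppp1r12b, a regulatory subunit of myosin phosphatase, Irag1, a substrate of cGMP-dependent protein kinase in smooth muscle, and the protocadherin Pcdh19. The log2 differences of these 8 ran from 0.15 for Wnk1 to 0.43 for Hipk2, all at FDR 0.704.

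Tnrc6a ranged from 108.1 to 140.2 CPM with a median of 131.5 in IgG libraries, and from 129.9 to 155.5 with a median of 148 in APL-9796 libraries. The arms overlapped, 9 of 12 APL-9796 libraries exceeded every IgG library, and 12 of 12 lay above the IgG mean of their sex. Such counts follow in part from picking genes for small p in these libraries. The share of all genes reaching them was not counted. The log2 difference was 0.19 (95% interval 0.09 to 0.28, edgeR unadjusted p = 0.000708). Zfhx3 ranged from 23.3 to 76.8 CPM with a median of 47.0 with IgG, and from 46.0 to 77.5 with a median of 67.2 with APL-9796. The lowest IgG value was library 11 and the lowest APL-9796 value library 4. Its log2 difference was 0.42 (interval 0.18 to 0.65), with 0.22 in males and 0.61 in females. Ppp1r12b ranged from 25.9 to 37.3 CPM with IgG and from 31.8 to 56.4 with APL-9796, and 7 of 12 APL-9796 libraries exceeded every IgG library. The value of 56.4 CPM was in APL-9796 library 5, and the other APL-9796 libraries reached at most 46.4. Irag1 was 89.9 ± 12.2 CPM with IgG and 107.7 ± 13.6 with APL-9796 (SD, n = 12 each), a log2 difference of 0.26 (interval 0.12 to 0.40). Irag1 was also higher in IgG hypoxia than in normoxia, by 0.38 at FDR 0.00314 in edgeR's fit of 36 libraries.

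Lower with APL-9796 among the smallest p-values were 3 genes of metabolism and protein synthesis: Adi1, an enzyme of methionine salvage, Cox8a, a subunit of cytochrome c oxidase, and Eif4ebp1, a repressor of cap-dependent translation. Mrpl49 of the mitochondrial ribosome, the co-chaperone Dnaja2, the telomere protein Terf2ip, Plac8 and Ccdc181 followed. The remaining 2 were Clca1, a secreted goblet cell protein, and Thrsp, a regulator of lipid synthesis in fat. Adi1 had the smallest p of the 20. Its levels ranged from 27.3 to 34.9 CPM with a median of 32.7 with IgG, and from 26.3 to 30.5 with a median of 27.8 with APL-9796. The ranges overlapped, with 5 of 12 APL-9796 libraries below every IgG library, a count that again follows in part from the choice by p. The log2 difference was -0.21 (interval -0.31 to -0.12, edgeR unadjusted p = 6.50e-05, FDR 0.704). Eif4ebp1 was 19.98 ± 3.14 CPM with IgG and 15.9 ± 2.03 with APL-9796 (SD, n = 12 each), a log2 difference of -0.33. Cox8a was 64.3 ± 10.8 CPM with IgG and 52.6 ± 7.61 with APL-9796. Its highest value in each arm was IgG library 11 (94.1 CPM) and APL-9796 library 4 (72.7 CPM). Its log2 difference was -0.29, with -0.22 without the first and -0.34 without the second of these libraries.

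Clca1 and Thrsp had the largest differences of the 20 and the widest intervals. Clca1 reached 102 CPM in IgG library 5, 89.2 in library 6 and 56.7 in library 11, whereas its median was 13.3 with IgG and 5.18 with APL-9796. Its log2 difference of -2.28 (interval -3.62 to -0.94) became -1.68 without IgG libraries 6 and 11 and APL-9796 libraries 4 and 5. Thrsp reached 161 CPM in IgG library 6 and 73.5 in library 11, with medians of 4.198 and 2.71 in the IgG and APL-9796 arms. Its log2 difference of -2.75 became -1.03 without those 4 libraries. Both genes are markers of cell types whose summed levels differed between libraries, given with the gene lists.

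**Figure D3:**
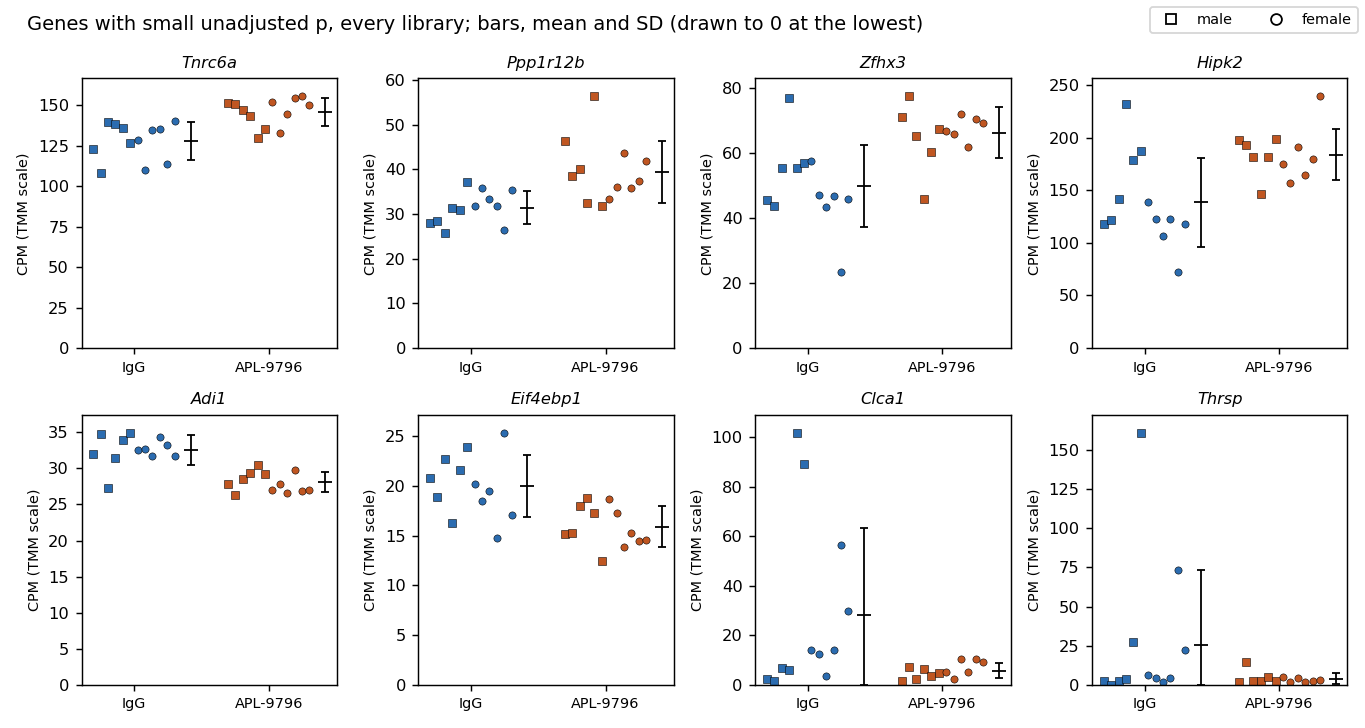
Level in CPM (axis from 0) of 8 genes with small unadjusted p in every IgG and APL-9796 library, males as squares and females as circles, with the mean and SD beside each arm. The arms overlap for every gene drawn, as for all 15359 genes tested, and Clca1 and Thrsp are set apart by a few high IgG libraries.

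The few genes called by another processing were all higher with APL-9796. Limma-voom with quality weights called Zfhx3 at a log2 difference of 0.46 (adjusted p = 0.0352). Leaving out IgG libraries 6 and 11 and APL-9796 libraries 4 and 5 called 1 gene without a symbol, rCG_28069, at 0.26 (edgeR FDR 0.0247). A model of 30 libraries that also left out 2 normoxic libraries called 9 genes. Of these, 4 had a symbol: Zfhx3, Ppp1r12b, Bcl9l, a co-activator of Wnt signalling, and the zinc-finger protein Hivep3. Bcl9l differed by 0.23 and Hivep3 by 0.46 on the log2 scale there, and by 0.18 and 0.41 with all 24 libraries. Both choices of libraries were made after the data had been seen.

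No gene passed within either sex. In males 0 of 15359 genes (0.0%) passed FDR 0.05, with 432 higher (2.81%) and 333 lower (2.17%) at an unadjusted p under 0.05. In females 0 (0.0%) passed, with 667 higher (4.34%) and 625 lower (4.07%). The difference between the sexes, tested as an interaction, passed for 0 genes (0.0%), with a smallest FDR of 0.814, 403 genes at an unadjusted p under 0.05 with the larger value in females (2.62%) and 477 with the larger value in males (3.11%). DESeq2 called 1 gene in males, 2 in females and 0 for the interaction, and limma-voom 0, 1 and 0. With 6 libraries per arm the intervals were wider, and 76.5% of genes in males and 73.9% in females had one within 1.5-fold. The unadjusted female counts were 332 and 267 with sequencing run as a term. They were 316 and 222 in run A alone, which holds 2 IgG and 5 APL-9796 females. IgG library 11 alone moved them most: without it they were 288 and 247. Without the male APL-9796 library 4, which shares the estimate of spread, they were 1065 and 939. Without IgG libraries 6 and 11 and APL-9796 library 5 they were 326 and 231.

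In males, Il1rl2, the interleukin-36 receptor, was picked for its small p. Its levels ranged from 4.003 to 6.03 CPM with IgG and from 6.25 to 10.6 CPM with APL-9796. The share of all genes with male arms apart in this way was not counted. The log2 difference was 0.69 in males and -0.08 in females, and DESeq2 alone called it in males (adjusted p = 0.0447). Nfe2l2, the oxidative stress regulator NRF2, was lower by 0.26 in males (155 against 130 CPM, IgG and APL-9796 means), with 0.03 in females. Krt4 had a log2 difference of 7.98 in males, which rested on 1674 CPM in APL-9796 library 5 against 0.493 to 1.49 in the other male APL-9796 libraries. Without that library the male difference was -0.15. In females, the kinase Fer was 14.8 CPM with IgG and 19.6 with APL-9796 (log2 difference 0.40), and the ubiquitin ligase Mid1 was 3.84 and 6.28 (0.69). Hipk2 differed by 0.70 in females and 0.17 in males, and DESeq2 called it in females (adjusted p = 0.0473). DESeq2 and limma-voom also called an unnamed gene, rCG_28049, in females, at 0.84 in edgeR's fit.

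The interaction had its smallest p-values at Maoa, Rasl10b and Tmem54, all at FDR 0.814. Maoa, which breaks down serotonin and noradrenaline, differed by -0.14 in males and 0.22 in females. Rasl10b, a small GTPase, differed by -0.62 in males and 0.38 in females. Tmem54 differed by 0.52 in males and -0.27 in females.

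Genes that respond to hypoxia give a scale for these limits. The normoxic and IgG arms differed at 983 genes higher (6.31%) and 964 lower (6.19%) in hypoxia, together 12.5%, at FDR 0.05 in a fit of 36 libraries and 15570 genes; hypoxia and IgG cannot be told apart there. Both comparisons use the same IgG libraries, so their values are given side by side and no relation between them is drawn. The 6 strongest genes by p in each direction are described by their levels.

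Scn3b, a sodium channel subunit, had a mean of 88.0 ± 20.2 CPM in normoxia, 449 ± 42.3 with IgG and 452 ± 55.3 with APL-9796 (SD, n = 12 each). The APL-9796 minus IgG difference was 0.01 log2 (interval -0.12 to 0.14), beside 2.36 for IgG hypoxia minus normoxia. Pdgfb, a mitogen for smooth muscle and pericytes, was 114 ± 26.9, 238 ± 28.8 and 258 ± 35.7 CPM in the same order. Pdgfd of the same growth factor family was 18.3 ± 2.53, 52.9 ± 10.9 and 53.7 ± 9.43 CPM. In all 3 genes both hypoxic arms lay above every normoxic library. They were picked for their difference from normoxia, and the share of all genes apart in this way was not counted. The sodium channel Scn7a, the phospholipase Plcb1 and Slc26a10 had APL-9796 minus IgG differences of 0.04, 0.10 and 0.15, beside hypoxia differences of 1.91, 1.16 and 4.37.

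Among genes lower in hypoxia, Esm1, an endothelial proteoglycan of tip cells, was 102 ± 22.4 CPM in normoxia, 26.97 ± 4.78 with IgG and 31.6 ± 9.27 with APL-9796. Its antibody difference was 0.21 log2 (interval -0.06 to 0.49), beside -1.91 for hypoxia. Npr3, the natriuretic peptide clearance receptor, was 112 ± 33.9, 18.5 ± 8.08 and 21.3 ± 7.83 CPM, with an antibody difference of 0.21 (interval -0.28 to 0.70). Lyve1, a hyaluronan receptor, was 420 ± 84.4, 69.8 ± 27.9 and 69.1 ± 24.6 CPM, with a difference of -0.0038 (interval -0.47 to 0.46). Clec14a of the endothelium, Taf11 and Ivns1abp had antibody differences of 0.09, -0.05 and -0.06, beside hypoxia differences of -0.98, -0.84 and -0.79. For all 12 genes the 2 hypoxic arms overlapped, as they did for every gene tested (0 of 15359 apart).

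**Figure D4:**
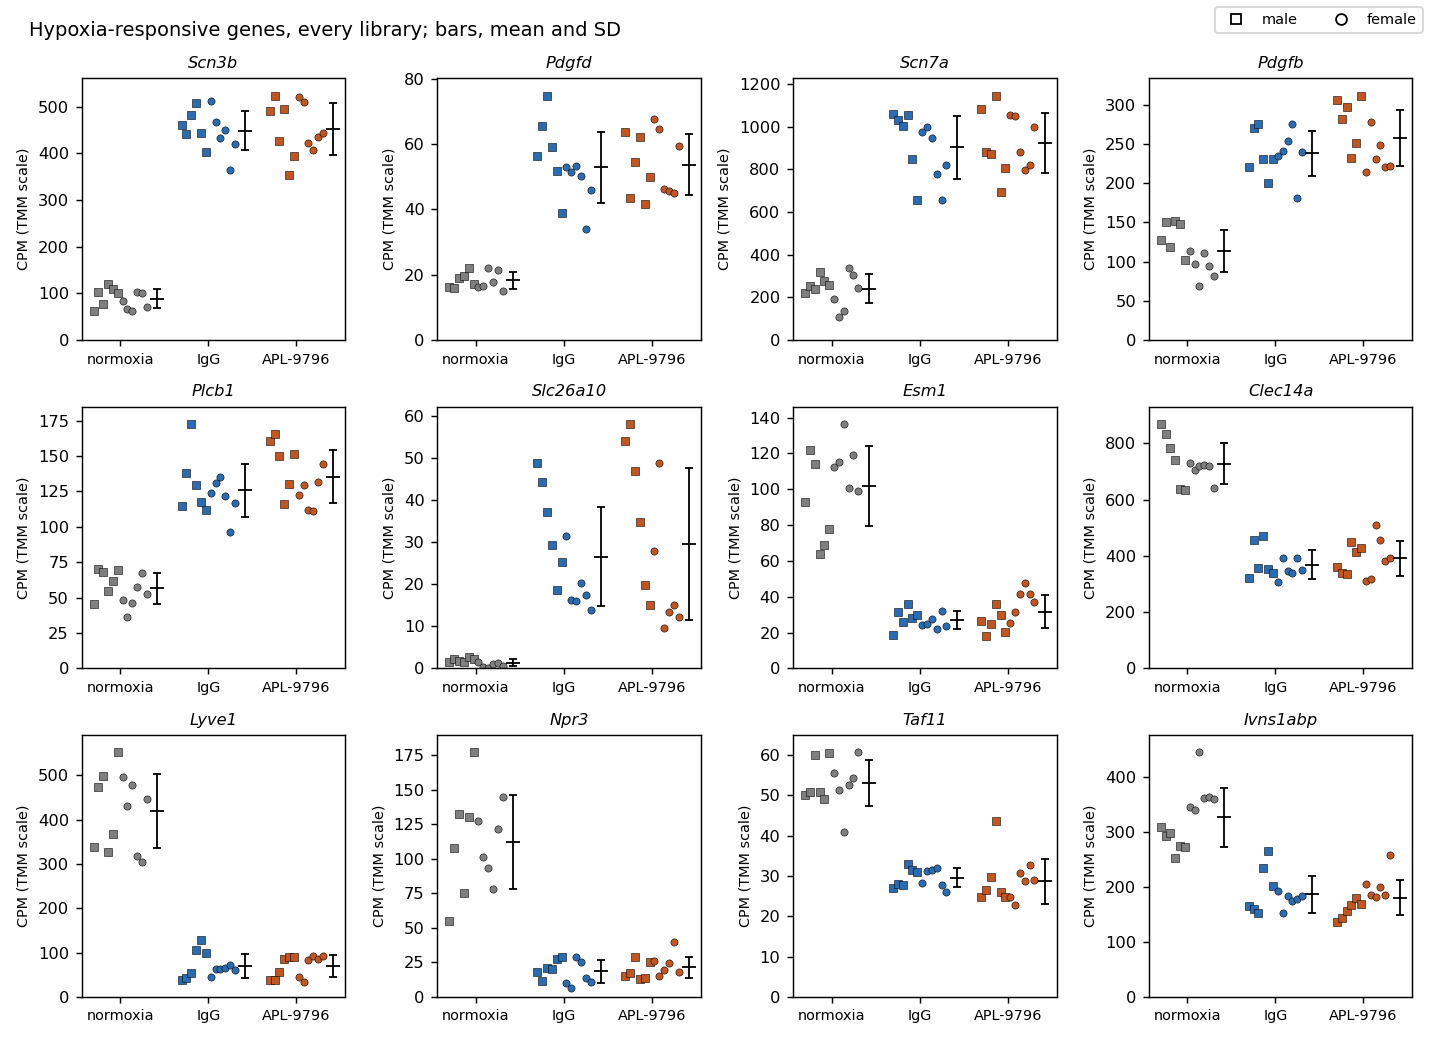
Level in CPM (axis from 0) of the 6 genes with the smallest p higher and the 6 lower in IgG hypoxia than in normoxia, in every library of the 3 arms, with mean and SD beside each. The IgG and APL-9796 libraries overlap for all 12 genes, as for all 15359 genes tested.

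Hypoxia genes were also taken from 1 sex and the antibody difference read in the other, so that the arm means compared shared no library. The estimate of spread was still shared between the sexes. Direction and size of the hypoxia change were those of the choosing sex, taken as fixed values without their error. A full return means an antibody difference that cancels that change, and the hypoxia change of the sex read was not used. In males 477 genes passed FDR 0.05 for hypoxia (such calls made up 3.1% of all genes), with a median absolute change of 0.73 log2. The female antibody interval left out a full return for 471 of them (98.7%) and a return of 50% or more for 304 (63.7%). Over all genes these shares were 23.7% and 11.4%, with a median absolute change of 0.12. Of 2407 such genes chosen in females (15.5% of all genes), with a median of 0.48, the male interval left out a full return for 2342 (97.3%) and 50% or more for 1753 (72.8%), against 45.9% and 25.2% over all genes, whose median absolute change was 0.20. Both sets were chosen for the size of that change. Signed so that positive means further from normoxia, the median antibody difference was 0.01 in the first set and 0.06 in the second, against -0.02 and 0.03 over all 15359 genes signed the same way. In the second set, 14 genes (0.582%) lay toward normoxia and 165 (6.86%) away from it at an unadjusted p under 0.05. Over all 15359 genes, 191 lay toward and 574 (3.74%) away. In the first set they were 17 (3.56%) and 14 (2.94%), against 5.03% and 3.38%. The female hypoxia change kept normoxic libraries 8 and 9, which stood apart from the other normoxic females for some genes. Zfhx3 was at 15.4 and 12.6 CPM in these 2 libraries, against 43.8 to 64.8 in the others. Cox8a was at 98.0 and 112 CPM, against 41.6 to 64.4. Their part in the counts of the second set was not tested. With IgG libraries 6 and 11 and APL-9796 libraries 4 and 5 left out of the antibody fit, the second set held 14 toward and 315 away (13.1%), beside 7.75% away over all genes, and a full return was left out for 2322 of 2406.

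The 36 lists of pathway and cell type genes held 396 distinct genes that were tested, of which 0 passed FDR 0.05. In 17 lists no member reached an unadjusted p of 0.05. The median log2 difference lay within 0.1 of 0 for 23 lists, beside 0.0038 over all genes. Of all genes tested, 51.6% had an estimate above 0. Counts of members under an unadjusted p of 0.05 are read against 6.73% of all genes, 3.43% higher and 3.30% lower. In the fit without IgG libraries 6 and 11 and APL-9796 libraries 4 and 5 6.22% were higher and 6.8% lower. Where APL-9796 library 4 was kept the shares were 2.72% and 2.58%, together 5.3%. In run A alone they were 3.61% and 3.45%, together 7.06%.

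Zinc transporter genes and Mtf1 lay close to 0. Of 28 genes of zinc transport, metallothioneins and MTF1 on the list, 22 had a row and 17 were tested. No metallothionein was among those tested, so these targets of MTF1 could not be read. Of the 17, 0 had an unadjusted p under 0.05, against a background of 6.73%. The median log2 difference was 0.01, and all 17 intervals lay within 1.5-fold. The exporter Slc30a1 had 22.9 to 43.9 CPM with a median of 34.7 with IgG, and 13.3 to 46.7 with a median of 33.5 with APL-9796. The arms overlapped over nearly their whole ranges. Its log2 difference was -0.01 (interval -0.26 to 0.24), and its normoxic mean was 39.0 ± 8.68 CPM (SD, n = 12). Mtf1 was 27.6 ± 3.64 CPM with IgG and 30.1 ± 3.68 with APL-9796 (log2 difference 0.12, interval -0.03 to 0.28). Slc30a7, an exporter into the secretory pathway, differed by 0.13 (interval -0.07 to 0.34). The importers Slc39a4, Slc39a10 and Slc39a14 differed by 0.01, 0.02 and 0.05. The widest bound of any of the 17 was -0.39, at Slc39a5.

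Slc30a1 is the zinc-responsive gene that was measured, so its promoter is shown: the 250 bases before the RefSeq gene start, rat assembly GRCr8, chr13:106021769-106022018, plus strand, 5′ to 3′. Capitals mark matches on either strand to the core of the metal response element, searched as TGCACNC and TGCGCNC. There are 2 matches, both on the minus strand.
Slc30a1 promoter: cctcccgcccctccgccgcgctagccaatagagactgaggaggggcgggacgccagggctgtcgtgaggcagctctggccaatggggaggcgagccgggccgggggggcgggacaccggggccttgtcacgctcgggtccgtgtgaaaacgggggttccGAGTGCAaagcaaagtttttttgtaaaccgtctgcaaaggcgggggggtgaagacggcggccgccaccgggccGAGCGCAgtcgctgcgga
Of 33469 rat promoters of the same length, 20.6% held at least 1 such match and 4.90% at least 2.

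Smooth muscle and matrix genes gave positive medians with no gene past the threshold. All 10 tested smooth muscle contractile genes missed an unadjusted p of 0.05, with a median of 0.20 log2 and 9 of 10 estimates above 0. The median was 0.29 in males and 0.02 in females, a difference not tested for lists. Without IgG libraries 6 and 11 and APL-9796 library 5, 4 of 10 reached it, all higher, where 2.72% of all genes were higher. With APL-9796 library 4 also left out, 0 were higher and 1 was lower, and the median was 0.19. Kcnmb1, a subunit of the calcium-activated potassium channel, was 8.66 ± 1.11 CPM with IgG and 10.2 ± 2.42 with APL-9796 (difference 0.23, interval -0.0043 to 0.47). The intermediate filament Des differed by 0.27 (interval -0.02 to 0.57). Des stood at 352 CPM in APL-9796 library 5, which carried skeletal and heart muscle transcripts, and at most 219 in the other APL-9796 libraries. The same list held 7 of 10 genes higher in IgG hypoxia than in normoxia at FDR 0.05. Of 28 extracellular matrix genes, 0 reached an unadjusted p of 0.05, and the median was 0.06, beside 18 of 28 higher in hypoxia. Without IgG libraries 6 and 11 and APL-9796 libraries 4 and 5, 10 of the 28 reached it, all higher with APL-9796, where 6.22% of all genes were higher, and the median was 0.14. With APL-9796 library 4 kept, 0 did. In run A alone 5 did, all higher, beside 3.61% of all genes. The fibrillin Fbn1 differed by 0.18 (interval -0.03 to 0.39) and the thrombospondin Thbs1 by 0.37 (-0.09 to 0.83).

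In the list of BMP, TGF-beta and hereditary pulmonary hypertension genes, 2 of 34 reached an unadjusted p of 0.05, a share below the 6.73% of all genes. They were the activin antagonist Fstl3 and the inhibitory Smad7, each with a difference of 0.20. The median was 0.04. Bmpr2, the receptor most often mutated in heritable pulmonary arterial hypertension, was 385 ± 65.3 CPM in normoxia, 323 ± 68.8 with IgG and 372 ± 61.0 with APL-9796 (SD, n = 12 each). Its antibody difference of 0.20 had an interval of -0.02 to 0.43. Of 24 vasoactive genes 3 reached an unadjusted p of 0.05: Ednrb, the endothelin B receptor (0.15, interval 0.05 to 0.24), Htr2b, a serotonin receptor (0.38), and Nppa, the atrial natriuretic peptide (-3.34). Nppa stood at 241 CPM in IgG library 6 and 42.1 in IgG library 11, and differed by -0.44 without those and APL-9796 libraries 4 and 5. Edn1, the endothelin-1 gene, was 65.8 ± 14.4 CPM with IgG and 63.0 ± 11.3 with APL-9796. Its interval ran from -0.30 to 0.17, beside -1.28 for IgG hypoxia minus normoxia.

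Hypoxia-inducible factor targets outside glycolysis had a median of -0.02, with 1 of 17 genes at an unadjusted p under 0.05. That gene was Ddit4, an inhibitor of mTOR complex 1, at 153 ± 41.8 CPM with IgG and 120 ± 36.01 with APL-9796 (log2 difference -0.36, interval -0.68 to -0.04). Vegfa differed by 0.05 (interval -0.09 to 0.18). Glycolysis had 0 of 10 genes and proliferation 0 of 23, with medians of -0.01 and 0.00. The interferon, Fc receptor and complement, and unfolded protein and oxidative stress lists had 0 of 8, 0 of 11 and 0 of 16, with medians of 0.02, -0.03 and -0.05. Among 18 cytokines and chemokines, Sele, the endothelial adhesion molecule E-selectin (0.75), and Il1a (0.30) reached it.

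All 15 immediate early genes, which respond to stimuli within minutes, had a positive estimate, with a median of 0.22 and 2 at an unadjusted p under 0.05. These were Egr3 (0.79, interval 0.07 to 1.52) and Nr4a2 (0.24). Egr3 stood at 84.4 CPM in APL-9796 library 6 and at most 32.8 in the other APL-9796 libraries, and differed by 0.39 (edgeR unadjusted p = 0.166) without that library. Their summed level ran from 1790 to 2993 CPM with IgG and from 1874 to 3348 with APL-9796 except for library 6, at 5871. Without APL-9796 library 6 the median was 0.08, with 13 of 15 estimates above 0 and 1 gene under 0.05. The 12 circadian clock genes had a median of -0.35 with 0 under 0.05. Their summed level ran from 502 to 1810 CPM with IgG and from 495 to 1839 with APL-9796, and the median difference was -0.87 in males and 0.16 in females.

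**Figure D5:**
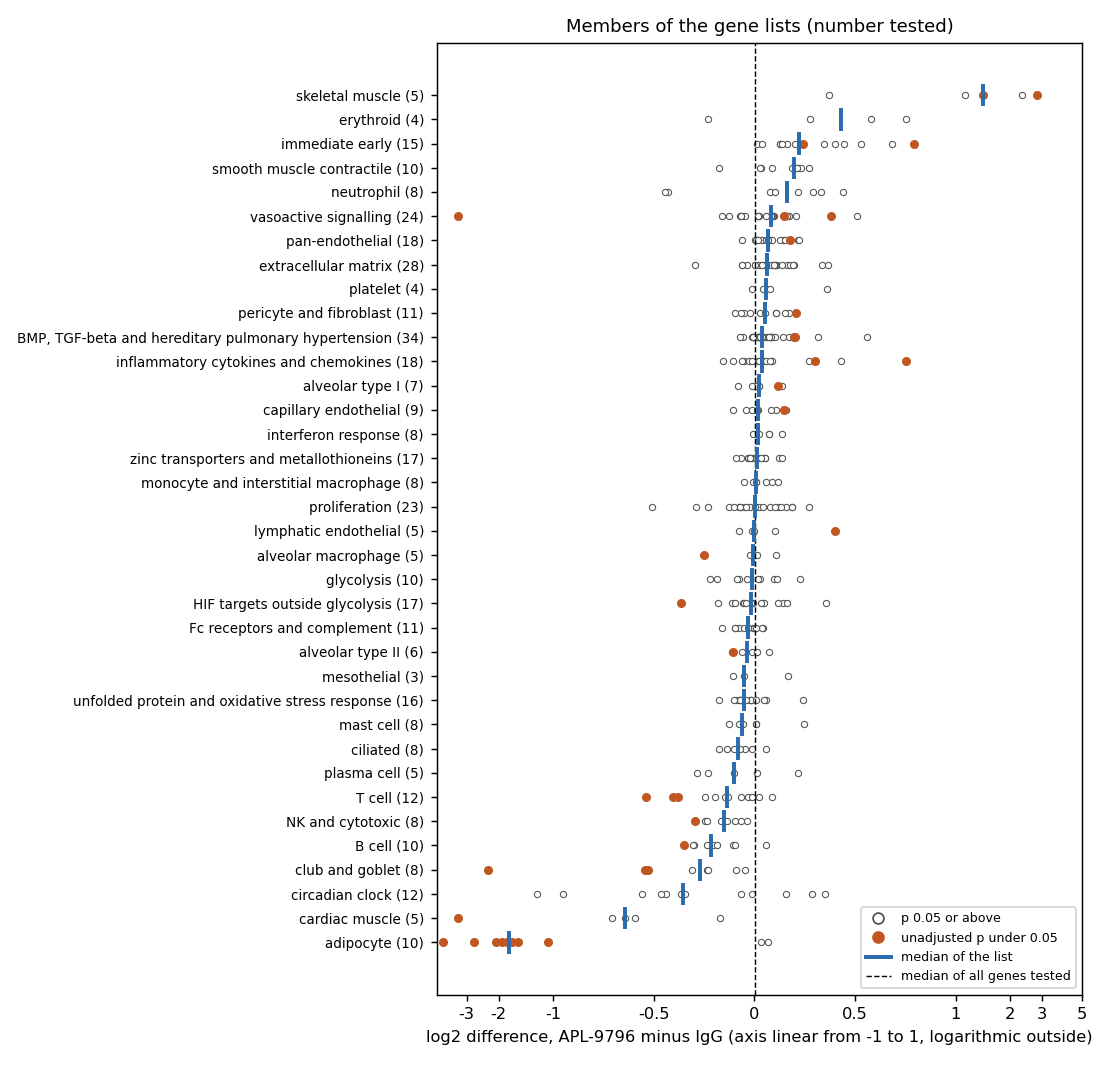
Log2 difference of APL-9796 minus IgG for each tested member of 36 gene lists (points, filled where the unadjusted p was under 0.05), with the median of each list (bar) and of all genes (dashed line); the axis is linear from -1 to 1 and logarithmic outside. Most medians lie near 0, and the adipocyte, heart muscle and skeletal muscle lists lie farthest out.

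Alveolar, ciliated, endothelial and pericyte markers had medians within 0.1 of 0, and club and goblet cell markers did not. Alveolar type I, type II and ciliated markers had medians of 0.02, -0.04 and -0.08. Pan-endothelial markers had 17 of 18 estimates above 0 and a median of 0.07, with 1 under an unadjusted p of 0.05, the transcription factor Erg (0.18). Capillary and lymphatic endothelium had medians of 0.02 and -0.0038, and pericytes and fibroblasts 0.05. Each of these lists had 1 member under 0.05 except the ciliated one, which had 0: Clic5 of type I cells (0.12), Napsa of type II cells (-0.11), Ednrb of capillaries, Prox1 of lymphatics (0.40) and Cspg4 of pericytes (0.21). Club and goblet cell markers were lower in all 8 estimates, with a median of -0.27 and 3 of 8 under an unadjusted p of 0.05 (3.30% of all genes were lower): Clca1, Agr2 (-0.53) and Scgb3a1 (-0.54). Without IgG libraries 6 and 11 and APL-9796 libraries 4 and 5, that median was -0.13 with 1 of 8 under 0.05, where 6.8% of all genes were lower. Scgb1a1, the main club cell secretoglobin, was 4504 ± 988 CPM with IgG and 4245 ± 1033 with APL-9796.

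Lymphocyte markers had negative medians. T cell markers had a median of -0.14 with 3 of 12 under an unadjusted p of 0.05 and lower, beside 3.30% of all genes, among them Cd247, the T cell receptor zeta chain (-0.40), and Cd8b (-0.54). B cell markers had -0.22 with 1 of 10 (Ms4a1, the CD20 gene, -0.35), and NK and cytotoxic markers -0.15 with 1 of 8 (Ccl5, -0.29). Per sex, the T cell median was 0.02 in males and -0.31 in females, and the B cell median -0.01 and -0.45; the difference between sexes was not tested for lists. In run A alone the T, B and NK medians were -0.09, -0.12 and -0.12, with 2, 0 and 0 genes under 0.05. Without IgG libraries 6 and 11 and APL-9796 libraries 4 and 5 they were -0.26, -0.30 and -0.16, with 4, 3 and 2 genes lower under 0.05, where 6.8% of all genes were lower. The part of sequencing run in these values was not tested beyond that. Alveolar macrophage, monocyte, neutrophil, mast cell and plasma cell lists had medians of -0.01, 0.01, 0.16, -0.06 and -0.10. Of these lists' members, Pparg alone was under 0.05 (-0.25).

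Markers of tissues outside the lung differed most, and few libraries carried them. Adipocyte markers had a median of -1.74 with 8 of 10 lower at an unadjusted p under 0.05. Their summed level was 438 to 1487 CPM with IgG, the highest in libraries 6 (1487) and 11 (842), and 444 to 677 with APL-9796. Without IgG libraries 6 and 11 and APL-9796 libraries 4 and 5, the median was -0.54 with 0 lower and 1 higher under 0.05. Heart muscle markers had a median of -0.64, and 0.02 without those 4 libraries. Their sum reached 1118 CPM in IgG library 6, 709 in APL-9796 library 5 and 681 in IgG library 11, against medians of 164 and 175 in the arms. Skeletal muscle markers had a median of 1.42 and -0.11 without the same libraries. Their sum was 2740 CPM in APL-9796 library 5, against at most 53.0 in the other APL-9796 libraries and 109 with IgG. Red cell markers had a median of 0.43 with 0 of 4 under 0.05, and platelet markers 0.06 with 0 of 4. Mesothelial markers had -0.05 with 0 of 3.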

How the data were processed

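The authors deposited unnormalized whole-number counts of reads per gene, and an information sheet with arm, sex and read file names. The submitters' processing notes name DESeq2 1.24.0. No source used here gives the aligner, counter, strandedness or build, so overlapping, antisense and near-identical genes may share counts. The table held 27308 genes. A RefSeq table (GRCr8) gave 11095 of them a current symbol, with 66.9% of counts; 16213 were tested without a symbol where abundant enough. A line of totals (0.0% of counts) was left out. Depth was 6.07 to 18.1 M counts. Every pair of libraries differed by more than sampling noise (chi-square per gene at least 4.59).

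The 24 hypoxic libraries were fitted with edgeR 4.0.16 (R 4.3.3), with sex and arm as terms, TMM scaling, the filterByExpr filter and the robust quasi-likelihood test. Sexes and their interaction used a fit of 4 groups, and normoxia a fit of 36 libraries. Intervals at 95% used the standard error and total degrees of freedom of the fit, which add those from sharing spread across genes to the residual ones. A count of 0 was read as at most 3 counts. CPM used TMM-scaled totals. Principal components used log2 CPM with a prior count of 2, and permutation tests 100000 resamples. Alternatives included DESeq2 1.42.0, limma 3.58.1 and sva 3.50.0. Fits were tested on simulated data. Figures used Python 3.11.15 and matplotlib 3.10.9.

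Named genes had a symbol and a mean of at least 1 CPM. They were the 10 smallest p-values in each direction, the 3 smallest in males, females and the interaction, the 6 smallest in each direction for hypoxia and the 2 smallest of each list, with any gene past FDR 0.05 in a fit with at most 10 such genes. Of the genes this rule gave, 2 are not reported here. Other genes were named for their known role after their values were seen. The comparison, lists and alternatives were chosen with earlier results of these data known. Same-numbered libraries of the arms had correlations of -0.195 to 0.214 in their deviations, so numbers were not read as pairs.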

Additional observations from a re-analysis of the deposited data

Results flagged for a closer look

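A sample lying far from the other 5 of its sex and arm was flagged in 14 of 92 sets examined (the 20 genes of smallest p and 3 principal components). The nominal rate of about 1 in 20 sets assumes normally distributed values. The sets share the same 24 libraries and some genes were strongly skewed, so 14 of 92 is not read against that rate. APL-9796 library 4 was set apart at -43.979 on the second component (others -5.60 to 3.71), at 146.8 CPM of Hipk2 (others 182 to 199), at 72.67 CPM of Cox8a (50.2 to 57.4) and at 45.21 CPM of Terf2ip (64.2 to 72.9). IgG library 11 was set apart at -12.828 on the second component (others 3.24 to 7.44), at 94.05 CPM of Cox8a (55.8 to 62.5) and at 73.54 CPM of Thrsp (1.64 to 21.9). APL-9796 library 5 had 32.997 on the first component (others -10.6 to 4.77) and -32.558 on the third (-5.68 to 5.66). IgG library 6 had 161.0 CPM of Thrsp (0.115 to 27.4), and APL-9796 library 2 had 14.64 CPM (1.57 to 5.11). Irag1 stood at 124.0 CPM in IgG library 7 (others 81.6 to 94.2) and at 129.1 CPM in APL-9796 library 1 (94.5 to 104). Adi1 stood at 29.79 CPM in APL-9796 library 10 (26.6 to 27.8).

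For 2 of the named genes every male APL-9796 library lay on one side of the male IgG mean. Every female one lay on the other side of the female IgG mean. The share of all genes with this pattern was not counted, and Tmem54 had been picked for its small interaction p. Tmem54 differed by 0.522 in males and -0.269 in females, a female minus male difference of -0.792. Ivns1abp differed by -0.305 and 0.189, a difference of 0.494. Neither passed the interaction test (FDR of edgeR's quasi-likelihood test 0.814 for Tmem54).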

How the results depend on the processing

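With both sexes, 0 genes passed FDR 0.05 in all 24 fits that each left out 1 library (range 0 to 0) and in 12 of the other 15 alternatives. The exceptions were 1 gene with limma-voom, 1 without IgG 6, IgG 11, APL-9796 4 and APL-9796 5, and 9 in the model of 30 libraries. In males DESeq2 called 1 gene, and in females DESeq2 called 2 and limma-voom 1. Genes with an interval within 1.5-fold numbered 13323 to 13506 when single libraries were left out. The unadjusted count of 1034 became 2550 with limma-voom, 2013 and 1975 in the 2 fits without those 4 libraries, 1821 without APL-9796 4 and IgG 11, 1601 with 1 surrogate variable, 1624 with no filter and 626 in a model of all 36 libraries, and ran from 764 to 2421 when single libraries were left out. The cause was not tested. All 20 genes of smallest p kept their direction in 780 of 780 refitted values. They were chosen in these same libraries, which the refits largely reuse, so this is no independent check. The numbers do not pair the libraries; with a replicate block, 0 genes passed and 812 were under an unadjusted p of 0.05. List medians moved by more than their spread between libraries for adipocyte markers (-0.47 without 3 libraries, -0.54 without 4) and skeletal muscle markers (-0.076 and -0.11). Hypoxia genes numbered 725 in run A alone, where fewer libraries were fitted, against 1947. Intervals were widest for genes below about 6.94 CPM, where 58.8% lay within 1.5-fold; no fit varied the depth.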
